A study of Mus musculus with 12 samples.

Results

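The bitter taste receptor family of the mouse was measured here as 35 genes, all with a symbol that begins with Tas2r and a number, out of 22154 genes that could be named on the arrays. Each of the 35 had 1 probe set with 1 gene symbol, so no choice between probe sets was needed, and none was lost to a probe set shared by several symbols. All 35 were matched by Entrez identifier to protein-coding genes in the RefSeq table of assembly GRCm38.p6. The family was chosen by name and not by any measured value, but with earlier results from these arrays known.

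Tas2r genes encode G protein-coupled receptors that bind bitter compounds on type II taste cells of the tongue. A bound receptor activates gustducin, whose alpha subunit is Gnat3, and the signal then runs through the phospholipase Plcb2 and the calcium channel Itpr3 to the cation channel Trpm5. The same receptors and signalling proteins are found outside the tongue in tuft cells, chemosensory epithelial cells that depend on the transcription factor Pou2f3. Cells of this kind have also been described in the thymic medulla, whose epithelial cells (mTECs) are known for expressing genes of many peripheral tissues.

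RNA came from mTECs of C57BL/6 mice aged 4 weeks, hybridised to 12 Affymetrix mouse gene arrays. Sorted cells were negative for DAPI and CD45, positive for Epcam and UEA and low for Ly51, and were split by MHC class II into a high fraction (mTEChi) and a low fraction (mTEClo). The 8 groups were Aire-/- mTEChi and Aire+/+ mTEChi, Brg1-/- mTEChi and Brg1+/+ mTEChi with 2 arrays each, and Aire-/- mTEClo and Aire+/+ mTEClo, Brg1-/- mTEClo and Brg1+/+ mTEClo with 1 array each. Aire is the regulator of peripheral tissue genes in mTECs, and Brg1, encoded by Smarca4, is the motor subunit of SWI/SNF, a complex that remodels chromatin. The driver or allele behind each loss, and whether arrays came from separate animals or from pools, are not given in the sources used here. The p-values then measure only how these samples scatter, which may be technical.

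The median log2 intensity of an array was 5.07 to 5.32. Signal at the Aire probe set was 9.01 and 9.73 (log2) in Aire-/- mTEChi, against 8.04 and 8.80 in Aire+/+ mTEChi. Its place relative to the deleted sequence is not given, so it does not check the labels, and Aire-/- below means the arrays labelled so. Smarca4 read 5.88 and 5.44 in Brg1-/- mTEChi, against 6.13 and 6.89 in Brg1+/+ mTEChi. Arrays carry the number 1 or 2 in their labels, and every mTEClo array is a number 1. In mTEChi the number made a difference common to all groups: the median receptor gene was 0.28 higher on the log2 scale in number 1 than in number 2, and the median of all genes 0.12 higher. What the number marks is not given, so the differences between the fractions were also taken among arrays numbered 1. Those values stand beside a result where they change its call, turn its direction or move it by over 1.5 times. No detection call was used, so it is not known which of the dimmer receptor genes lay above background, and because members of this family resemble each other in sequence, signal shared between them was not tested.

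The receptor genes that passed a test did so between the fractions. With the 4 genotypes averaged, 17 of the 35 receptor genes were lower in mTEChi than in mTEClo and 0 were higher (limma, Benjamini-Hochberg adjusted p under 0.05 over all genes, 8 arrays against 4), where 2.11% of all genes were lower and 3.67% higher. The median difference of the 35 genes, mTEChi minus mTEClo, was -1.05 on the log2 scale, and that of all genes was -0.10. The difference was below 0 for 33 of the 35 and above 0 for 2, and it was above 0 for 8612 of all 22154 genes. The highest of the 8 mTEChi arrays lay under the lowest of the 4 mTEClo arrays for 13 of the 35, and for 5.58% of all genes. In a bulk sort, fewer cells that express a receptor and less of its RNA per cell cannot be told apart.

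**Figure D1:**
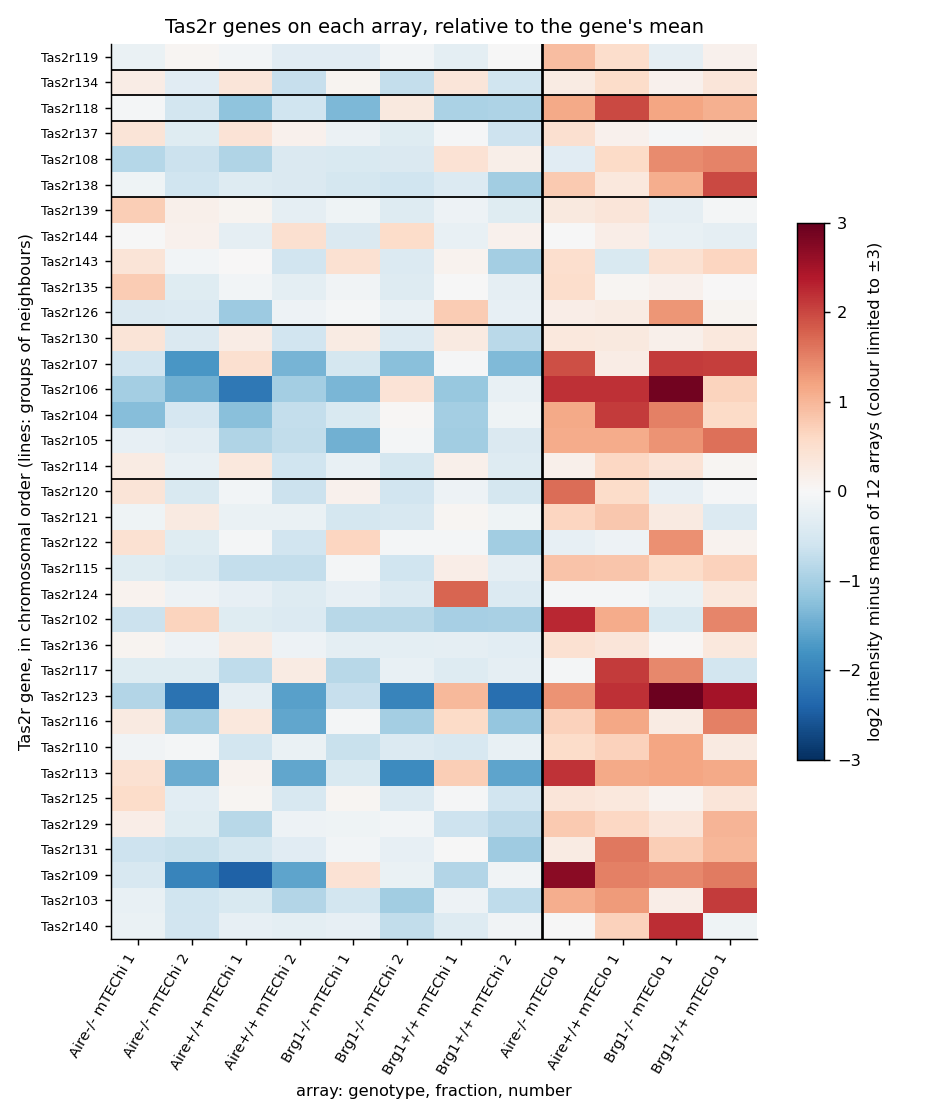
Log2 intensity of each Tas2r gene (rows, in chromosomal order) on each of the 12 arrays (columns), shown as the difference from the gene's own mean. The mTEChi arrays stand left of the vertical line and the mTEClo arrays right of it, and horizontal lines part groups of neighbouring genes. The rows for Tas2r106, Tas2r109 and Tas2r123 are blue on most mTEChi arrays and red in mTEClo, though each has a mTEChi array above the gene's mean. The rows from Tas2r139 to Tas2r126 stay pale on most arrays.

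The largest differences belonged to Tas2r123, Tas2r106 and Tas2r109. Tas2r123 had a lowest, median and highest log2 intensity of 1.69, 2.71 and 4.94 in mTEChi, against 5.31, 6.15, 6.90 and 6.46 in the Aire-/-, Aire+/+, Brg1-/- and Brg1+/+ mTEClo arrays. It was 10.3-fold lower in mTEChi (log2 difference -3.36, SE 0.65, adjusted p = 0.0244), and 5.49-fold lower among arrays numbered 1 alone (log2 difference -2.46, adjusted p = 0.00586). The groups did not overlap, although mTEChi itself was spread: all 4 arrays numbered 2 were at or below 2.34, and all 4 numbered 1 were at or above 3.08. Its call over all arrays rested on single arrays: it did not pass without the array numbered 2 of Aire-/-, Aire+/+ or Brg1-/- mTEChi, nor without the Aire+/+, Brg1-/- or Brg1+/+ mTEClo array, with an adjusted p of up to 0.0757.

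Tas2r106 ran through 2.71, 3.77 and 5.25 (lowest, median, highest) in mTEChi, and stood at 7.03, 7.04, 7.73 and 5.51 in mTEClo in the same order of genotypes. It was 7.86-fold lower in mTEChi (log2 difference -2.97, SE 0.39, adjusted p = 0.00522). The Brg1+/+ mTEClo array was the lowest of the 4 and came within 0.3 log2 units of the brightest mTEChi array, a Brg1-/- one. Tas2r109 had 3.79, 5.54 and 6.65 in mTEChi, against 8.92, 7.72, 7.66 and 7.76 in mTEClo. The gap between the groups was wide for Tas2r109, with no mTEChi array within 1 log2 unit of any mTEClo array, and the gene was 6.53-fold lower in mTEChi (log2 difference -2.71, SE 0.34, adjusted p = 0.0044).

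Tas2r105 is the receptor that in mice responds to cycloheximide. It read 6.72, 7.58 and 8.11 (lowest, median, highest) in mTEChi, against 9.29, 9.29, 9.51 and 9.83 in the Aire-/-, Aire+/+, Brg1-/- and Brg1+/+ mTEClo arrays. The mTEClo arrays were tightly grouped, and the gene was 3.89-fold lower in mTEChi (log2 difference -1.96, SE 0.28, adjusted p = 0.007). Its neighbour Tas2r104 read 3.12, 3.81 and 4.44 in mTEChi, against 5.55, 6.51, 5.91 and 4.98 in mTEClo, and was 3.98-fold lower in mTEChi (log2 difference -1.99, SE 0.26, adjusted p = 0.00471). Tas2r118, which lies apart from the other receptor genes on chromosome 6, read 3.78, 4.35 and 5.40 in mTEChi, against 6.25, 7.09, 6.30 and 6.18 in mTEClo. It was 4.02-fold lower in mTEChi (log2 difference -2.01, SE 0.31, adjusted p = 0.0109), with no overlap.

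**Figure D2:**
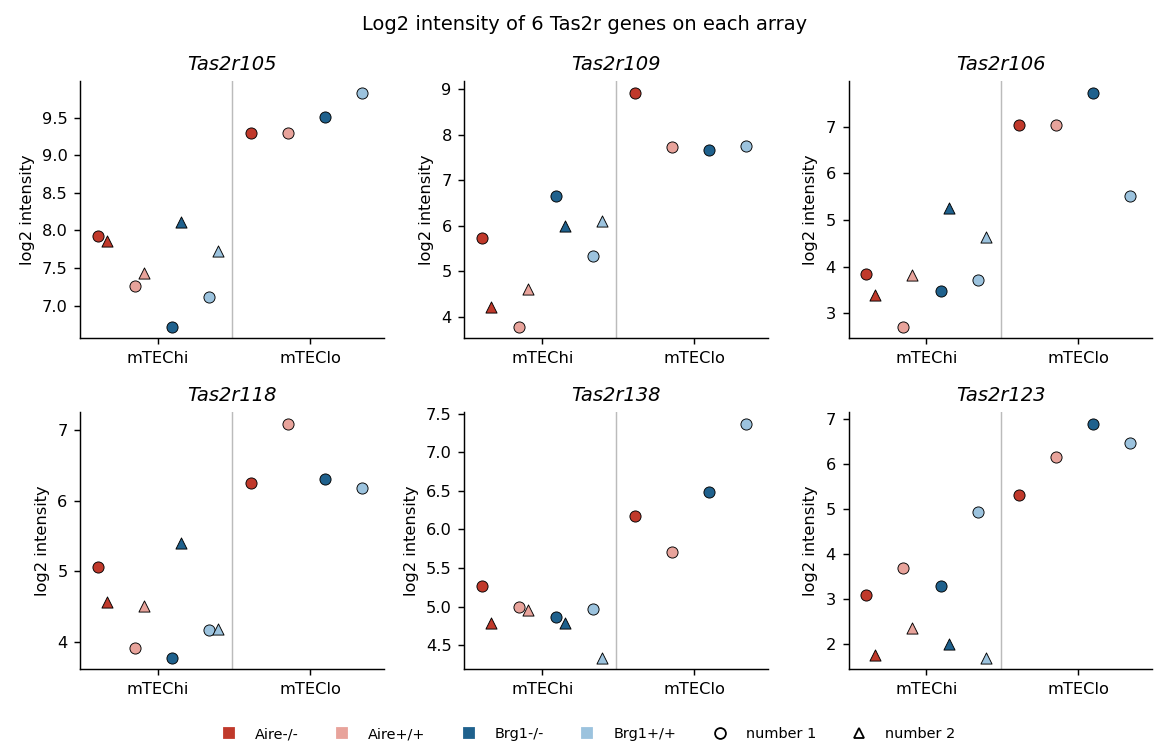
Log2 intensity of 6 Tas2r genes on each array, 1 panel per gene, with mTEChi left and mTEClo right of the grey line. Colour gives the genotype, circles are arrays numbered 1 and triangles arrays numbered 2. In every panel the 4 mTEClo points lie above all 8 mTEChi points, and in the Tas2r123 panel the mTEChi triangles lie below the mTEChi circles.

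Tas2r138 is the mouse counterpart of the human receptor for phenylthiocarbamide, TAS2R38. It read 4.34, 4.91 and 5.27 (lowest, median, highest) in mTEChi, against 6.17, 5.71, 6.48 and 7.37 in the Aire-/-, Aire+/+, Brg1-/- and Brg1+/+ mTEClo arrays. It was 2.95-fold lower in mTEChi (log2 difference -1.56, SE 0.18, adjusted p = 0.00324) and passed the test under each of the other settings in which it was tested. Tas2r103 read 1.94, 2.41 and 2.84 in mTEChi, against 4.08, 4.25, 3.17 and 5.08 in mTEClo, and Tas2r131 read 2.59, 3.22 and 3.64 in mTEChi, against 3.90, 5.24, 4.39 and 4.66 in mTEClo. Neither overlapped between the fractions, and the differences were -1.75 for Tas2r103 and -1.34 for Tas2r131 (adjusted p = 0.00296 and 0.0124).

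A further 3 genes were lower by about 1 log2 unit without overlap. Tas2r115 read 2.55, 2.85 and 3.47 (lowest, median, highest) in mTEChi, against 4.11, 4.09, 3.82 and 3.95 in the Aire-/-, Aire+/+, Brg1-/- and Brg1+/+ mTEClo arrays. Tas2r129 read 2.17, 2.74 and 3.18 in mTEChi, against 3.78, 3.61, 3.35 and 4.02 in mTEClo. Tas2r110 read 2.01, 2.35 and 2.60 in mTEChi, against 3.21, 3.37, 3.85 and 2.95 in mTEClo. The differences were -1.10, -1.05 and -1.01 in that order of genes, and the adjusted p-values were 0.0117, 0.0215 and 0.00981.

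Overlap between the fractions marked 5 of the 17 genes, and in each case 1 or 2 mTEClo arrays lay within the mTEChi range. Tas2r107 read 2.25, 3.08 and 4.47 (lowest, median, highest) in mTEChi, against 5.91, 4.21, 6.09 and 6.07 in the Aire-/-, Aire+/+, Brg1-/- and Brg1+/+ mTEClo arrays (log2 difference -2.37, adjusted p = 0.0217). Tas2r102 read 3.09, 3.35 and 4.75 in mTEChi, against 6.35, 5.20, 3.64 and 5.56 in mTEClo (log2 difference -1.64, adjusted p = 0.00909). Among arrays numbered 1, Tas2r107 differed by -1.74, Tas2r117 by -1.33 and Tas2r140 by -0.97, and none passed (adjusted p = 0.0656, 0.164 and 0.164). The low mTEClo array was the Aire+/+ one for Tas2r107 and the Brg1-/- one for Tas2r102. Tas2r108, whose product responds to denatonium in mice, read 3.74, 4.21 and 5.07 in mTEChi, against 4.31, 5.21, 6.06 and 6.13 in mTEClo (log2 difference -1.17, adjusted p = 0.00633). Tas2r117 read 1.94, 2.41 and 3.03 in mTEChi, against 2.72, 4.88, 4.22 and 2.22 in mTEClo (log2 difference -1.11, adjusted p = 0.035). Tas2r117 was above the mTEChi range in the Aire+/+ and Brg1-/- mTEClo arrays and within it in the Aire-/- and Brg1+/+ ones. Tas2r140 read 1.66, 2.12 and 2.29 in mTEChi, against 2.39, 3.09, 4.62 and 2.27 in mTEClo (log2 difference -1.05, adjusted p = 0.0123). The Brg1-/- mTEClo array stood apart for Tas2r140, and without that array the adjusted p was 0.267.

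The count of 17 became 12 without the Aire+/+ mTEClo array, and also 12 without the Brg1-/- mTEClo array. Tas2r102, Tas2r103, Tas2r104, Tas2r105, Tas2r106, Tas2r108, Tas2r109, Tas2r118 and Tas2r138 were lower in mTEChi whichever single array was left out. Tas2r117 passed in the fewest settings, and did not pass without the Aire+/+ mTEClo array (adjusted p = 0.271). Tas2r107, Tas2r110, Tas2r115, Tas2r129 and Tas2r131 each lost the call without at least 1 of the mTEClo arrays. Shares of all genes in the fits with an array left out are not given.

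The 18 receptor genes that did not pass the test ranged in their difference down to -2.12, the value of Tas2r113. Tas2r113 read 2.48, 3.39 and 5.11 (lowest, median, highest) in mTEChi, against 6.54, 5.50, 5.55 and 5.51 in the Aire-/-, Aire+/+, Brg1-/- and Brg1+/+ mTEClo arrays. Its groups did not overlap but its adjusted p was 0.101. Its mTEChi arrays numbered 1 were 1.42 to 2.32 brighter on the log2 scale than those of the same group numbered 2. On the arrays numbered 1 alone, Tas2r113 was 2.29-fold lower in mTEChi and passed (adjusted p = 0.0258). Tas2r116 had the next largest difference, -1.36 with an adjusted p of 0.182 and overlapping groups, and among arrays numbered 1 it was -0.63 (adjusted p = 0.0501). The other 16 lay between -0.72 for Tas2r120 and 0.12 for Tas2r144. Among them Tas2r119, the 1 receptor gene on chromosome 15, read 4.55, 4.75 and 4.95 in mTEChi, against 5.81, 5.42, 4.63 and 5.01 in mTEClo (log2 difference -0.49, 95% interval -0.85 to -0.12, adjusted p = 0.133). Tas2r124 differed by 0.00 with an interval of -0.86 to 0.87, which does not show equal levels. Among arrays numbered 1, Tas2r144 was at -0.16, and Tas2r130 and Tas2r139 were at 0.01 and 0.05, on the other side of 0 from their values over all arrays.

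**Figure D3:**
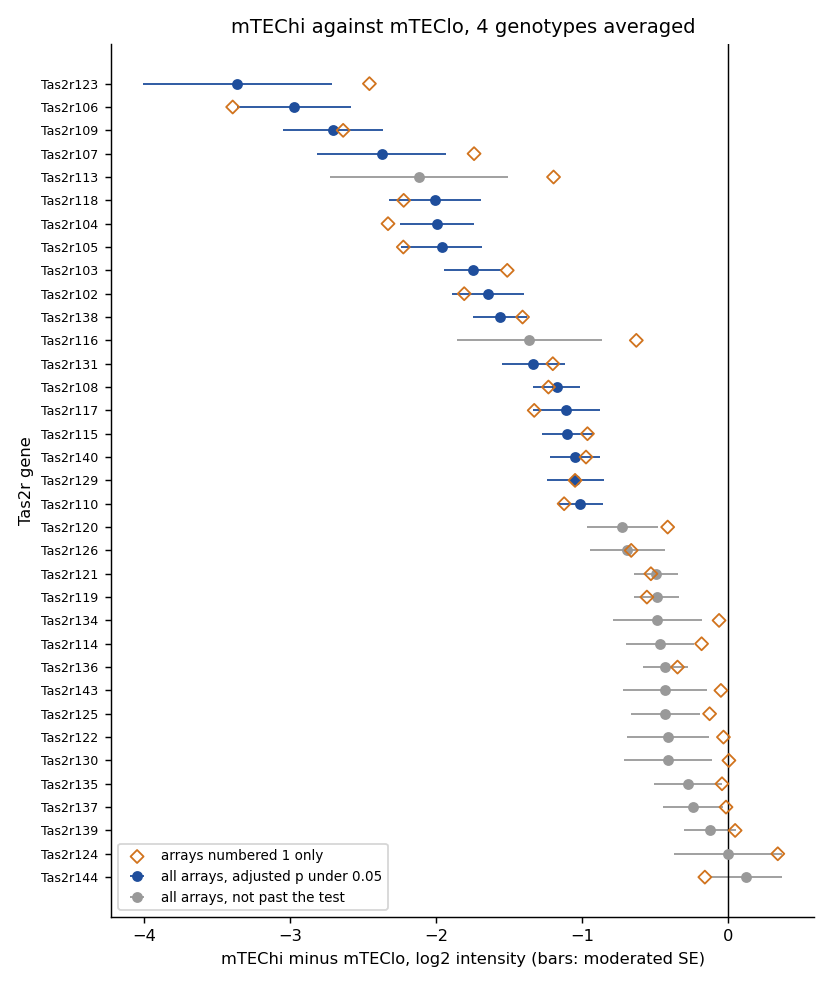
Difference in log2 intensity, mTEChi minus mTEClo with 4 genotypes averaged, for each of the 35 Tas2r genes. Filled points with bars are the estimate and its moderated SE over 12 arrays, blue where the adjusted p is under 0.05, and open diamonds are the same difference over arrays numbered 1 alone. The estimates run from -3.36 for Tas2r123 to 0.12 for Tas2r144, and the diamonds of Tas2r113, Tas2r116 and Tas2r123 lie to the right of their points.

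Among the 8 arrays numbered 1, 1 of each genotype and fraction, 15 of the 35 receptor genes were lower in mTEChi by limma, where 4.49% of all genes were. Of these 15 genes, 14 were among the 17 lower over all arrays. Tas2r113 was added, and Tas2r107, Tas2r117 and Tas2r140 did not pass. With the number as a replicate block over all arrays, 18 of the 35 were lower, where 4.84% of all genes were, and in the wild types averaged 17, where 2.49% were. With 4 genotypes averaged, the block gave the same differences as arrays numbered 1, so it is not a separate estimate of them. Compared within each genotype, 19 of the 35 genes were lower in the mTEChi array in 4 of 4 genotypes, and 18.8% of all genes were. At least a 2-fold lower intensity in 4 of 4 genotypes was found for 6 receptor genes, Tas2r104, Tas2r105, Tas2r106, Tas2r109, Tas2r118 and Tas2r123, and for 0.569% of all genes. For Tas2r106 the 4 differences were -3.20 in Aire-/-, -4.33 in Aire+/+, -4.25 in Brg1-/- and -1.80 in Brg1+/+. For Tas2r118 they were -1.19, -3.17, -2.52 and -2.01 in the same order, and for Tas2r105 -1.37, -2.03, -2.79 and -2.71. No genotype was the lowest in all 3 genes. The median over the 35 genes was -0.62 in Aire-/-, -0.95 in Aire+/+, -0.74 in Brg1-/- and -0.48 in Brg1+/+, each with 1 array a fraction and no test.

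The comparison was also fitted in the wild types and in each knockout, which share arrays with the average over genotypes. In the wild types averaged (4 mTEChi arrays against 2 mTEClo arrays), 10 of the 35 genes were lower in mTEChi and 0 higher, where 0.632% of all genes were lower and 1.93% higher. These were Tas2r102, Tas2r103, Tas2r104, Tas2r105, Tas2r108, Tas2r109, Tas2r118, Tas2r129, Tas2r131 and Tas2r138. The largest difference among them was that of Tas2r109, -2.78 with an SE of 0.48 and an adjusted p of 0.0308. That count rested on few arrays: it was 0 without the Brg1+/+ mTEClo array, 1 without the Aire+/+ mTEClo array, and 1 without either Aire+/+ mTEChi array. Without either Brg1+/+ mTEChi array it was 4 or 5, and without any 1 knockout mTEChi array it was 5. Among arrays numbered 1 it was 9, where 1.23% of all genes were lower. Tas2r123 was added there (adjusted p = 0.0266), and Tas2r131 and Tas2r138 did not pass (adjusted p = 0.0619 and 0.13). Knockout arrays enter the comparison of wild types only through the shared estimate of spread. The counts with an array left out have no share of all genes beside them. Whether those falls were particular to the receptor genes was not tested.

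In Aire-/- alone (2 arrays against 1), 0 of the 35 genes passed by limma, where 0.469% of all genes did. An unadjusted p under 0.05 was found for 11 of the 35, where it was found for 6.86% of all genes. The smallest adjusted p was 0.0746, that of Tas2r109 (log2 difference -3.94, SE 0.68). The median difference of the 35 genes was -0.63, with 31 below 0. With the number as a replicate block, 5 of the 35 were lower in Aire-/- mTEChi, where 0.808% of all genes were. In Brg1-/- alone, 1 gene passed, where 0.0406% of all genes were lower and passed. This gene was Tas2r140 (log2 difference -2.72, SE 0.34, adjusted p = 0.0294), with 2.14 and 1.66 in Brg1-/- mTEChi and 4.62 in Brg1-/- mTEClo. The median difference was -0.88, with 32 of the 35 below 0. With the replicate block, 9 were lower in Brg1-/- mTEChi, where 0.614% of all genes were.

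Position in the genome was read from the RefSeq gene order of GRCm38.p6. Of the 35 genes, 33 lie on chromosome 6, Tas2r119 on chromosome 15 and Tas2r134 on chromosome 2. Cut wherever more than 10 other genes intervene, the chromosome 6 genes form 5 groups of neighbours. Over the whole family, 17 of 35 genes were lower in mTEChi, where 2.11% of all genes were. The groups were not tested against each other. Tas2r118 stands alone. Tas2r137, Tas2r108 and Tas2r138 follow, with 2 of 3 lower in mTEChi and a median difference of -1.17. The next 5 genes, Tas2r139, Tas2r144, Tas2r143, Tas2r135 and Tas2r126, had 0 of 5 that passed, with differences between -0.69 and 0.12. The 6 genes from Tas2r130 to Tas2r114 had 4 that passed and a median of -1.98, and the 18 genes from Tas2r120 to Tas2r140 had 10 that passed and a median of -1.07. Genes that did not pass lay directly beside genes that did: Tas2r114 (-0.46) is next to Tas2r105 (-1.96), and Tas2r124 (0.00) is next to Tas2r102 (-1.64).

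The sequence before the annotated starts of the receptor genes was read from RefSeq windows of GRCm38.p6, from 250 bases before to 50 after each gene's start. Windows were found for 31 of the 35 genes. For 29 of the 31 the annotated start is an ATG, so the last 50 bases of the window are then coding sequence, the 250 bases before it lie upstream of that, and the start of transcription is not known from the window. Windows were searched on both strands for ATGCAAAT, the octamer that POU-domain factors bind, and for TATAAA. These motifs were chosen after the array values had been seen, and no match of one overlapped a match of the other in the receptor windows. The octamer was in 7 of 31 receptor windows (22.6%) and in 1.74% of all 32851 windows. Among the 11920 windows whose A+T content lay within the receptor windows' own range, 2.83% held it, among windows of olfactory receptor (Olfr) genes 2.64%, and among those of vomeronasal receptor (Vmn1r) genes 1.95%. TATAAA was in 10 of 31 receptor windows (32.3%) and in 13.6% of all windows. The match of Tas2r131 began 27 bases after the start, and before the start alone, a window chosen after these matches were seen, TATAAA was in 9 receptor windows (29.0%) and in 12.4% of all windows. The octamer was before the start in the same count of 7 receptor windows, and in 1.60% of all windows.

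The octamer and its surroundings are shown because its place was alike in most of these genes: 6 of the 7 read ATTTGCAT, its reverse complement, on the gene's own strand, beginning 124 to 194 bases before the start. Capitals mark the octamer, and each line reads 5′ to 3′ on the strand of the gene.
Tas2r118, chr6:23970163-23970198, minus strand: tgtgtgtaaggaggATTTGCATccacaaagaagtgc
Tas2r137, chr6:40491032-40491067, plus strand: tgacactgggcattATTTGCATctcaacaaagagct
Tas2r108, chr6:40493432-40493467, plus strand: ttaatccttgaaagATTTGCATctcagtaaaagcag
Tas2r144, chr6:42215157-42215192, plus strand: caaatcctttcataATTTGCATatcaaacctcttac
Tas2r135, chr6:42405372-42405407, plus strand: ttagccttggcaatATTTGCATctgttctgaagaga
Tas2r126, chr6:42434327-42434362, plus strand: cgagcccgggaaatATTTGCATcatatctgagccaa
Tas2r107, chr6:131660364-131660399, minus strand: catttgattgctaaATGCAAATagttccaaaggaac

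The octamer was in 6 of the 9 windows of the stretch from Tas2r118 to Tas2r126 and in 1 of the 20 windows from Tas2r130 to Tas2r140. In the first stretch Tas2r118 was lower in mTEChi, as were 2 of 3 and 0 of 5 genes in the groups after it. The second stretch is the larger, and there 4 of 6 and 10 of 18 genes in its groups were lower. Of all genes, 2.11% were lower by the same test. A link between the octamer and the calls was not tested. Of the 7 genes with the octamer, Tas2r118, Tas2r108 and Tas2r107 were lower in mTEChi, and Tas2r137, Tas2r144, Tas2r135 and Tas2r126 did not pass. Whole windows are given for Tas2r118, with the octamer in capitals, and for Tas2r109, which has no octamer and has TATAAA in capitals.
Tas2r118, chr6:23970011-23970310, minus strand: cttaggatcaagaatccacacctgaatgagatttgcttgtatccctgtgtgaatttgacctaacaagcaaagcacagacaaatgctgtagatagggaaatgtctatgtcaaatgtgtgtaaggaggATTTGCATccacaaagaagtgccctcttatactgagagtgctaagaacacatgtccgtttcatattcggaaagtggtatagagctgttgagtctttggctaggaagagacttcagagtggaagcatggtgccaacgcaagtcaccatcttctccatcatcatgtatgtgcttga
Tas2r109, chr6:132980916-132981215, minus strand: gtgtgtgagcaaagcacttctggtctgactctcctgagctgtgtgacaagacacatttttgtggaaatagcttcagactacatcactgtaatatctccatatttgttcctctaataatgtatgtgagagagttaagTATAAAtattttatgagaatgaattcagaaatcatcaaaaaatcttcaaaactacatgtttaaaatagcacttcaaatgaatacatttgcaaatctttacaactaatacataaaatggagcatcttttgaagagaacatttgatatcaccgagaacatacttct
A motif match describes these letters only, and binding was not measured here.

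Of the genes that carry the signal from a bitter receptor, 11 of 14 listed were measured. With the 4 genotypes averaged, 4 were lower in mTEChi and 0 higher, where 2.11% of all genes were lower and 3.67% higher. Gnat3, the gustducin alpha subunit, read 7.64, 8.26 and 9.15 (lowest, median, highest) in mTEChi, against 10.91, 11.17, 10.90 and 11.39 in the Aire-/-, Aire+/+, Brg1-/- and Brg1+/+ mTEClo arrays. No mTEChi array lay within 1 log2 unit of the mTEClo range, and the difference was -2.77 (SE 0.32, adjusted p = 0.00324). Plcb2 read 5.08, 5.52 and 5.83 in mTEChi, against 6.72, 6.51, 6.67 and 7.13 in mTEClo, a difference of -1.26 (SE 0.13, adjusted p = 0.00214). Trpm5 read 6.12, 6.42 and 6.84 in mTEChi, against 7.48, 7.40, 7.91 and 7.68 in mTEClo, a difference of -1.15 (SE 0.18, adjusted p = 0.00974). All 3 genes were separated between the fractions, as was Rgs21, a regulator of G protein signalling found in taste cells, with a difference of -2.01 (SE 0.45, adjusted p = 0.046). The Rgs21 difference among arrays numbered 1 was -1.35, a 2.55-fold lower intensity (adjusted p = 0.00564). On those arrays 6 of the 11 signalling genes were lower in mTEChi and 0 higher, where 4.49% of all genes were lower.

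The other 7 measured genes of the list did not pass. Gnb3, a G protein beta subunit of taste cells, differed by -1.11 with an adjusted p of 0.188, and among arrays numbered 1 alone by -1.65 with an adjusted p of 0.00202. Itpr3 read 5.39, 5.58 and 6.06 in mTEChi, against 5.59, 5.39, 5.84 and 5.69 in mTEClo, and differed by 0.03 (adjusted p = 0.944). Gnb1, Trpm4, Calhm1, Pde1a and Gnai2 lay between -0.25 and 0.29. Gnai2, an inhibitory G protein alpha subunit, was at -0.04 over all arrays (adjusted p = 0.959) and at -0.65 among arrays numbered 1, where it passed (adjusted p = 0.0187). Gnb1 and Itpr3 turned direction there, to -0.25 and -0.07, and did not pass. The 3 sweet and umami receptor genes differed by -0.27 for Tas1r1, -0.27 for Tas1r2 and -0.29 for Tas1r3 and did not pass, with adjusted p-values of 0.453, 0.351 and 0.337.

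**Figure D4:**
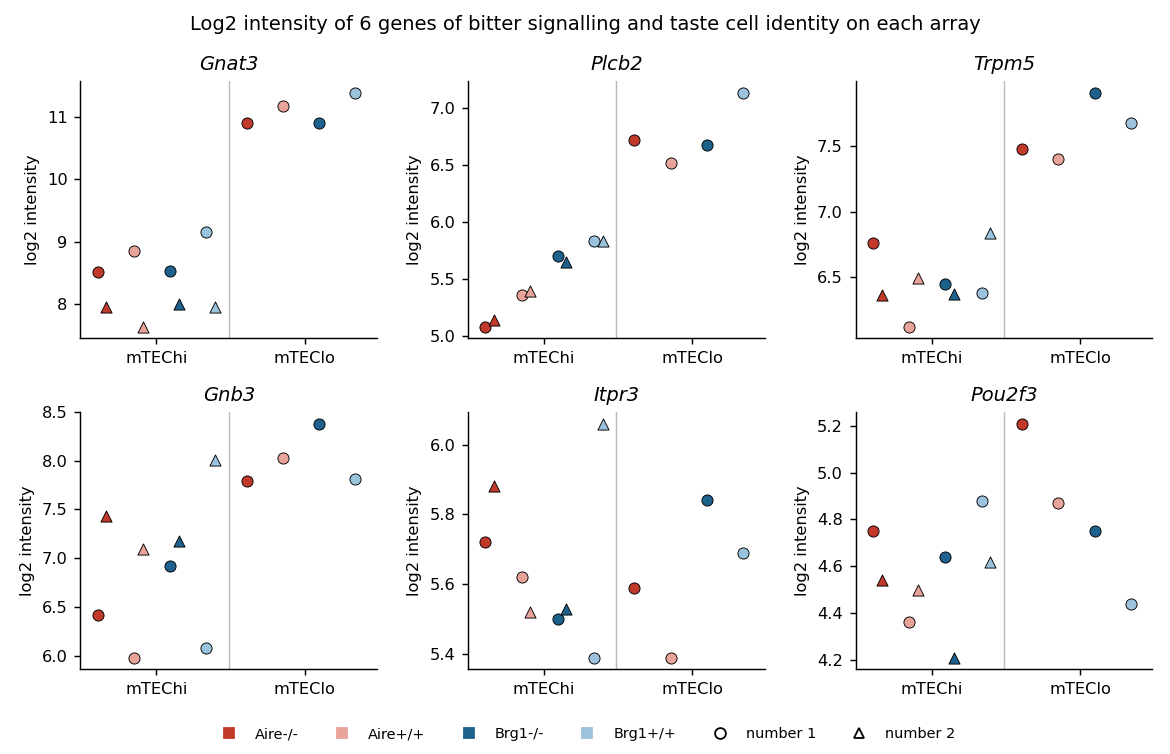
Log2 intensity of 5 genes of bitter signalling and of Pou2f3 on each array, drawn as in the plot of 6 Tas2r genes. The mTEClo points of Gnat3, Plcb2 and Trpm5 lie above all mTEChi points, while those of Gnb3, Itpr3 and Pou2f3 overlap them. The Gnb3 circles in mTEChi lie below the triangles of the same genotype.

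With the 4 genotypes averaged, 2.11% of all genes were lower in mTEChi and 3.67% higher. Of the list of tuft and taste cell genes, 13 of 31 measured were lower in mTEChi and 1 was higher. Those lower included Dclk1, a marker kinase of tuft cells (-2.46, adjusted p = 0.00274), Il25, a cytokine that tuft cells release (-1.90, adjusted p = 0.00118), and Alox5ap and Ltc4s of leukotriene synthesis (-2.06 and -1.47, adjusted p = 0.0234 and 0.00548). Avil, Sh2d6, Bmx, Lrmp, Vav1, Fyb, Rgs13, Ly6g6f and Hmx2 were also lower, with Lrmp at -2.17 (adjusted p = 0.00038). Among arrays numbered 1, 14 of the 31 were lower and 1 higher, where 4.49% of all genes were lower. Hmx2 did not pass there (-0.77, adjusted p = 0.105), and Il17rb and Nrgn did (-1.18 and -1.02, adjusted p = 0.0124 and 0.0187). Bmx was at -2.46 over all arrays and at -1.86 among arrays numbered 1, passing in both. The gene that was higher was Tac1, a precursor of neuropeptides, by 1.66 (adjusted p = 0.0158). Pou2f3 itself read 4.21, 4.58 and 4.88 in mTEChi, against 5.21, 4.87, 4.75 and 4.44 in mTEClo, and did not pass (-0.26, adjusted p = 0.411). The summed intensity of the list on the linear scale was 2590.5 to 3352 in mTEChi arrays and 6766.2 to 8050.4 in mTEClo arrays. This list was chosen with the result for these genes known, so its count is a description.

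Markers of other cells were summed in both fractions. The summed intensity of 11 thymocyte genes was 596.3 to 2485 in mTEChi and 451.4 to 512.9 in mTEClo, with 0 of 11 passing and 11 of 11 differences above 0. The thymocyte sum on arrays numbered 1 was 596.3 to 883.9 in mTEChi, and 1 of the 11, Cd3d, was higher (0.97, adjusted p = 0.0395). Summed over 9 genes of dendritic cells, macrophages and B cells it was 879.5 to 1402.8 in mTEChi and 616.1 to 715.6 in mTEClo, with 0 of 9 passing over all arrays, and Ms4a1 and Siglech higher among arrays numbered 1 (adjusted p = 0.00789 and 0.0179). Over 8 cortical epithelial genes the sum was 1502.3 to 2304.5 in mTEChi and 870.5 to 1176.6 in mTEClo, but its genes moved in different directions. Of the 8, 2 were higher in mTEChi, Ccl25 (1.57) and Tbata (1.09), and 1, Cxcl12, was lower (-1.01, adjusted p = 0.0121). Psmb11 and Prss16, the latter at -0.07, did not pass. Over 10 fibroblast and endothelial genes the sum was 985.2 to 1689.4 in mTEChi and 1169.7 to 2470 in mTEClo, with 0 of 10 passing. Of 13 mTEC genes, 5 were higher in mTEChi, among them Cd80 by 2.97 and Aire by 2.14 (adjusted p = 0.00118 and 0.0101). The sorting marker itself, read as H2-Aa, was 1.12 higher in mTEChi with an adjusted p of 0.0676, and 0.74 higher among arrays numbered 1 (adjusted p = 0.0345). Read as H2-Ab1, it was 0.45 higher, and 0.36 higher among arrays numbered 1, and passed in neither (adjusted p = 0.146 and 0.133). On those arrays 6 of the 13 mTEC genes were higher in mTEChi and 1, Krt14, was lower (-1.07, adjusted p = 0.0174). No defining marker can be called absent, since no detection call was used, and the part of these cells in the receptor result was not tested.

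Other families of chemosensory receptors were read in the same fit, with 4 genotypes averaged. Of 1105 Olfr genes, 3 were lower in mTEChi and 3 higher, with a median of -0.12. Of 176 Vmn1r genes 1 was lower and 1 higher (median -0.06), of 107 Vmn2r genes 1 was lower (median -0.02), and of 15 trace amine receptor (Taar) genes 0 passed (median 0.04). Many receptor genes were dim, and among all 7673 genes whose mean log2 intensity was under 5, 0.743% were lower in mTEChi by the same test. Among arrays numbered 1, 5 Olfr genes were lower and 6 higher (median 0.01), 2 Vmn1r genes lower and 2 higher (median 0.05), 2 Vmn2r genes lower (median 0.06) and 0 Taar genes passed (median -0.01). No test of one family against another was made.

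No bitter receptor gene passed the test for loss of Aire in mTEChi. In Aire-/- against Aire+/+ mTEChi (2 arrays each), 0 of the 35 genes passed by limma, where 0.794% of all genes did, 171 lower and 5 higher. At an unadjusted p under 0.05 the count was also 0, where 5.46% of all genes were found. The median difference of the 35 genes, Aire-/- minus Aire+/+, was 0.24 with 26 above 0, and the median of all genes was 0.06. Tas2r109 had the highest difference, with 5.73 and 4.23 in Aire-/- and 3.79 and 4.62 in Aire+/+ (0.78, 95% interval -0.53 to 2.08). Tas2r107 had the lowest, with 3.42 and 2.25 in Aire-/- and 4.47 and 2.59 in Aire+/+ (-0.70, interval -2.38 to 0.99). Both pairs overlapped. Both intervals spanned more than 2 log2 units, which limits what 2 arrays a group could detect for Tas2r109 and Tas2r107. Spread differed between receptor genes: the SD over the 8 mTEChi arrays was 1.00 for Tas2r109 and 0.15 for Tas2r119. This SD pools the genotypes and both array numbers, so it is not the scatter within a group that the test uses.

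No receptor gene passed for loss of Brg1 in mTEChi either. In Brg1-/- against Brg1+/+ mTEChi, 0 of the 35 genes passed by limma and 0.0% of all genes did, with 1 receptor gene and 1.36% of all genes at an unadjusted p under 0.05. The receptor gene was Tas2r108, with 4.20 and 4.21 in Brg1-/- and 5.07 and 4.82 in Brg1+/+ (-0.74, 95% interval -1.36 to -0.12, adjusted p = 1). The 2 groups of Tas2r108 did not overlap. The median difference of the 35 genes was -0.01, with 19 below 0 and 15 above. For Tas2r105 the difference was -0.01 (interval -1.06 to 1.04), with 6.72 and 8.11 in Brg1-/- and 7.12 and 7.73 in Brg1+/+. The test of Brg1 effect minus Aire effect in mTEChi found 0 receptor genes, where 0.135% of all genes passed, and 0 receptor genes but 3.68% of all genes at an unadjusted p under 0.05.

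**Figure D5:**
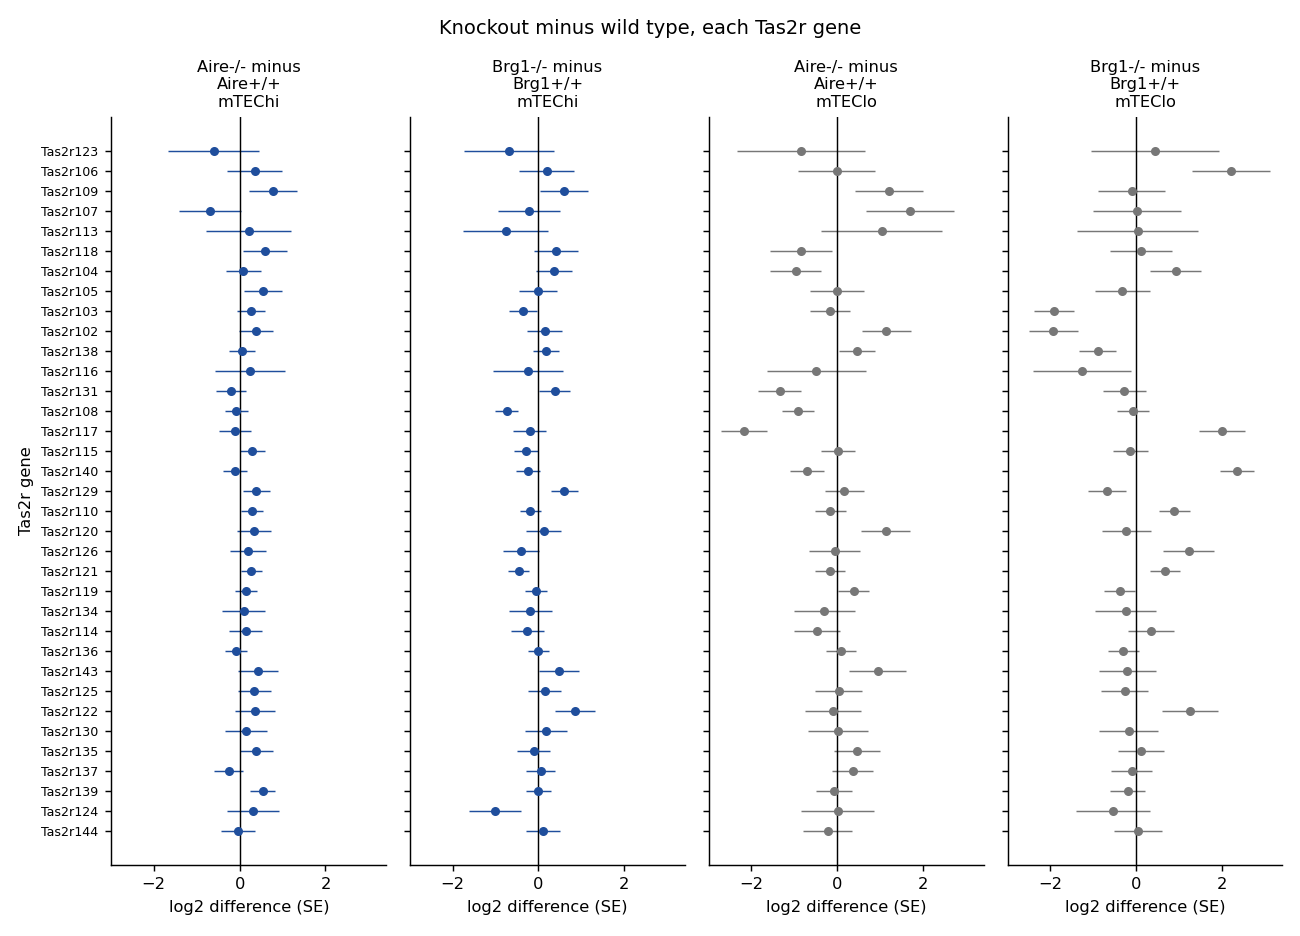
Difference in log2 intensity, knockout minus wild type, for each of the 35 Tas2r genes in 4 panels, with bars for the moderated SE. The mTEChi panels compare 2 arrays with 2, and the grey mTEClo panels compare 1 array with 1. Points lie on both sides of 0 in each panel, none beyond 1 log2 unit in mTEChi, and between -2.16 and 2.35 in mTEClo.

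In mTEClo each knockout and each wild type had 1 array, whose spread was taken from the mTEChi groups. No receptor gene passed for Aire-/- against Aire+/+ or for Brg1-/- against Brg1+/+, where 0.0% of all genes passed in either comparison. An unadjusted p under 0.05 was found for 3 and 6 of the 35 genes, where it was found for 1.35% and 1.72% of all genes. Some single differences were large. Tas2r117 read 2.72 in Aire-/- and 4.88 in Aire+/+ mTEClo, and 4.22 in Brg1-/- and 2.22 in Brg1+/+ mTEClo. Tas2r140 read 4.62 in Brg1-/- and 2.27 in Brg1+/+ mTEClo, and Tas2r103 read 3.17 in Brg1-/- and 5.08 in Brg1+/+ mTEClo. These 3 genes differed between single arrays and each had an adjusted p of 1. The median difference over the 35 genes was -0.01 for the Aire comparison and -0.10 for the Brg1 comparison.

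The signalling genes did not pass in either knockout. In Aire-/- against Aire+/+ mTEChi, Gnat3 differed by -0.02 with an SE of 0.53, and Trpm5 by 0.26 with an SE of 0.29. In Brg1-/- against Brg1+/+ mTEChi, Gnat3 differed by -0.28 with an SE of 0.53, and Trpm5 by -0.20 with an SE of 0.29. All 4 adjusted p-values were 1. Whether the effect of each knockout differed between the fractions was tested as well, and 0 of the 35 receptor genes passed for Aire or for Brg1, where 0.0% of all genes passed, with 1 and 6 of the 35, and 2.47% and 1.34% of all genes, at an unadjusted p under 0.05.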

How the data were processed

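The deposited intensities are on a linear scale, 1 per probe set and array, for 33732 probe sets on 12 arrays. Per the submitters' processing notes, RMA was used, as were Affymetrix Expression Console and the Transcriptome Analysis Console, all without a version. Whether the 12 arrays were normalized jointly was not stated. RMA is known to compress the fold change of dim genes, and most receptor genes were dim. Values are rounded to 2 decimals on the log2 scale. The log2 of each intensity was taken with no pseudocount. By the platform annotation, 23491 probe sets had 1 symbol, 1811 several and 8430 none. The brightest probe set of each gene was kept, which set 1337 aside and left 22154 genes.

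One model of 8 group means over 12 arrays was fitted with limma 3.58.1 in R 4.3.3 (lmFit, eBayes; 4 residual and 3.46 prior degrees of freedom), two-sided, with Benjamini-Hochberg adjustment over all genes and a threshold of 0.05. SE is the moderated standard error. The spread of a lone mTEClo array was taken from the mTEChi groups. The fit to arrays numbered 1 had 3 residual degrees of freedom. The number of arrays limits the precision. The fit was run on simulated data with known changes and independent noise. Those data held no difference between array numbers, so the run does not test that point. Alternatives were median centring, quantile normalization, a pseudocount of 16, a filter at the median level, the mean of a gene's probe sets, an intensity trend, a replicate block and leaving out arrays. Leaving out mTEClo arrays was chosen after seeing the data. Promoter windows and names come from RefSeq, GRCm38.p6.

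The members, the gene lists and the tests were chosen with earlier results of these data known. Any Tas2r gene may be named. Array values are given for those called in any comparison, the 8 with the largest fraction difference and the 6 with the highest mean. Genes of the signalling, tuft and marker lists may be named, other receptor families only by counts.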

Additional observations from a re-analysis of the deposited data

Results flagged for a closer look

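For 6 receptor genes, effects in a pair of comparisons ran in opposite directions, with every knockout array on one side of every wild-type array in one comparison and on the other side in the other. These 6 are 17.1% of the 35, and 4427 of all 22154 genes (20%) met the same rule. In mTEClo each genotype had 1 array, so any difference there separates the groups. The limma test of each such difference gave an adjusted p of 1. In Tas2r102 the Brg1 effect (Brg1-/- minus Brg1+/+) was above 0 in mTEChi and below 0 in mTEClo, a difference of 2.06 between the effects, and in Tas2r129 that difference was 1.27. In Tas2r121 the Brg1 effect was below 0 in mTEChi and above 0 in mTEClo, a difference of -1.12. The Aire effect (Aire-/- minus Aire+/+) was above 0 in mTEChi and below 0 in mTEClo for Tas2r118, Tas2r139, Tas2r110 and Tas2r121, with differences of 1.43, 0.60, 0.46 and 0.44. In mTEChi, the Brg1 effect minus the Aire effect on Tas2r121 was -0.73.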

How the results depend on the processing

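The count of receptor genes lower in mTEChi with 4 genotypes averaged (17) was 14 to 18 under centring, quantile normalization, a pseudocount, an intensity trend, the mean of probe sets, the replicate block and arrays numbered 1 alone, and 12 to 17 with 1 array left out. A filter at the median level kept 2 receptor genes, and 2 passed.

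The count for mTEChi against mTEClo, wild types averaged (10) was less stable. It was 4 with centring, 5 with quantile normalization, 2 with the filter, 17 with the replicate block and 0 to 5 with 1 array left out. Tas2r117 differed by 0.23 without the Aire+/+ mTEClo array and by -2.37 without the Brg1+/+ one. For mTEChi against mTEClo in Aire-/- (0), the count was 1 with the filter and 5 with the replicate block. For mTEChi against mTEClo in Brg1-/- (1), it was 0 with a pseudocount of 16, 0 with the filter, 9 with the replicate block and 0 to 1 with 1 array left out. With 1 array left out, all knockout comparisons and differences between effects gave 0. The share of all genes lower in mTEChi moved as well. In the wild types averaged it was 0.632%, 2.49% with the replicate block and 1.23% among arrays numbered 1. With 4 genotypes averaged it was 2.11%, 4.84% and 4.49% in the same order. Shares under centring, quantile normalization, a pseudocount, the filter or with an array left out are not given. Whether the moves were particular to the receptor genes, and their cause, was not tested.

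Array numbers are not said to pair samples. The difference between numbers 1 and 2 correlated across genes between all mTEChi groups (r of 0.552 to 0.657), and the replicate block, 1 term for the number in each of the 2 lines (Aire and Brg1), left 2 residual degrees of freedom. It changed no count in the knockout comparisons.

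Signal over background is not known for these arrays. How far differences of dim receptor genes are compressed was not tested, and the absence of a call in the knockouts, with 2 arrays a group or 1, does not show equal levels.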
